A study of Mus musculus with 8 samples.

Results

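Small leucine-rich proteoglycans are secreted matrix proteins with a curved core of leucine-rich repeats, and 10 of their genes were followed through the cells of the mouse intervertebral disc at postnatal day 10 (P10) and at 8 weeks. The 10 genes were taken by symbol from the gene lists of both ages, where each symbol occurred with 1 Ensembl identifier, out of 31053 genes in all. They were decorin (Dcn), biglycan (Bgn) and asporin (Aspn), fibromodulin (Fmod), lumican (Lum), Prelp and osteomodulin (Omd), osteoglycin (Ogn) and epiphycan (Epyc), and chondroadherin (Chad). The mice carried Tagln-CreERt2 together with R26tdTomato at both ages, so the transgelin promoter, active in smooth muscle and in other cells that express transgelin, drove a tamoxifen-inducible Cre that turns on a red reporter at the Rosa26 locus. Tamoxifen was given on postnatal day 5, and whole discs of lumbar levels 1 to 6 and tail levels 5 to 9 were dissociated for droplet-based single-cell RNA sequencing. No group without the transgenes or without tamoxifen was analysed here, and the study's title asks whether Tagln-positive progenitors contribute to the nucleus pulposus.

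The nucleus pulposus is the hydrated core of the disc, rich in the large proteoglycan aggrecan, and the annulus fibrosus around it is built of collagen fibre layers that resemble tendon at the outside and cartilage further in. Small leucine-rich proteoglycans bind collagen fibrils and help to set fibril diameter and spacing, and several of them hold growth factors of the TGF-beta family in the matrix. Decorin and biglycan carry chondroitin or dermatan sulfate chains, fibromodulin, lumican and osteomodulin can carry keratan sulfate, and asporin, Prelp and chondroadherin are usually found without such chains.

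The members lie in a few chromosomal groups, which the annotation of mm10 (GRCm38, GENCODE M21) gives as follows. Aspn (ENSMUSG00000021388, chr13:49544443-49567565), Omd (ENSMUSG00000048368, chr13:49582462-49592822) and Ogn (ENSMUSG00000021390, chr13:49608046-49624501) follow each other on the plus strand of chromosome 13 with gaps of 14.9 and 15.2 kb. Dcn (ENSMUSG00000019929, chr10:97479609-97518143), Lum (ENSMUSG00000036446, chr10:97565128-97572703) and Epyc (ENSMUSG00000019936, chr10:97644068-97682454) share the plus strand of chromosome 10, with the related gene Kera between Lum and Epyc. Prelp (ENSMUSG00000041577, chr1:133910304-133921414, minus strand) and Fmod (ENSMUSG00000041559, chr1:134037254-134048277, plus strand) are 115.8 kb apart on chromosome 1. Chad (ENSMUSG00000039084, chr11:94565047-94569127) and Bgn (ENSMUSG00000031375, chrX:73483602-73495933) stand on the plus strand of chromosomes 11 and X.

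The 250 bases before the start are printed for the 3 chromosome 13 neighbours, whose levels parted between cell classes, for Epyc, which was highest in the chondrocyte classes, for Chad, which was highest in the tendon and fibrochondrocyte classes, and for Fmod, the member with the highest level in nucleus pulposus cells. They come from RefSeq's mouse table (GRCm38.p6), 5′ to 3′ on each gene's plus strand, at chr13:49544193-49544442 (Aspn), chr13:49582212-49582461 (Omd), chr13:49607765-49608014 (Ogn), chr10:97643818-97644067 (Epyc, the first of 2 starts), chr11:94564797-94565046 (Chad) and chr1:134037004-134037253 (Fmod). Capitals mark a match on either strand to the letters TATAAA of the usual box before a start. They also mark ACAATG, which SOX proteins can bind. The last motif is TGTGGT, which RUNX proteins can bind.
Aspn: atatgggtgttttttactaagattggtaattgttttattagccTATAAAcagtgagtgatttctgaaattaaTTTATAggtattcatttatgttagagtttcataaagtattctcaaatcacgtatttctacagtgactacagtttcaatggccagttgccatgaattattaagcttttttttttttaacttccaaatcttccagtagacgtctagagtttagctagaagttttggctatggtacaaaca
Omd: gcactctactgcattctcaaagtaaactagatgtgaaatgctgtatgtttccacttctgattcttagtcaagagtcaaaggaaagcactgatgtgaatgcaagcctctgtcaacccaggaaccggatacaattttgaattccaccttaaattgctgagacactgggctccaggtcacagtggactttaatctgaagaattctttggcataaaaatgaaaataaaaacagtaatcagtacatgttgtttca
Ogn: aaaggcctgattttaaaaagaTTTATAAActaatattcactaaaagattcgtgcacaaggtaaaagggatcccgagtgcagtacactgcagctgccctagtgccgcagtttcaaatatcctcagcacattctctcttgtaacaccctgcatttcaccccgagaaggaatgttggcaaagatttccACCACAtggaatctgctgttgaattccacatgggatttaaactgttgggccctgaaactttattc
Epyc: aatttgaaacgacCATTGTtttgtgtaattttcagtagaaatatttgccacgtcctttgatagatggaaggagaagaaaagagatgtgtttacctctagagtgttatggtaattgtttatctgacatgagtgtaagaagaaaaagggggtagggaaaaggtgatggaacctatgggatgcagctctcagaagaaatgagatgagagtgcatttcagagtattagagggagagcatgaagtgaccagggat
Chad: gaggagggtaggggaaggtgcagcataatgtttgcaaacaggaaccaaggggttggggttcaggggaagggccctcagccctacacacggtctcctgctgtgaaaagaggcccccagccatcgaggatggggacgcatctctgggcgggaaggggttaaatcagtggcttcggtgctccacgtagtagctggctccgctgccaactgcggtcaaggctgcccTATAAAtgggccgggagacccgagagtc
Fmod: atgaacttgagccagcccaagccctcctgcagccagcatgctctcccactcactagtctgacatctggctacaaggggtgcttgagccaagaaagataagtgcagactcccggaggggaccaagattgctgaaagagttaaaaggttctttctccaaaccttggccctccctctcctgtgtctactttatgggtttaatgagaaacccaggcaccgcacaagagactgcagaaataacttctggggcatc

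The 3 neighbours had AT-rich windows, with a GC content of 30% in Aspn, 38.4% in Omd and 42.0% in Ogn against a median of 52.4% over 32851 windows of the same length, while the Chad window had 60.4%. TATAAA stood in the Chad window 28 bases before the start, the distance at which TATA boxes are usually found. In Aspn it stood 207 and 178 bases before the start, and in Ogn a forward and a reverse match overlapped from 229 bases before the start. The Ogn window also held TGTGGT 65 bases before the start, on the minus strand. The Ogn distances count from the RefSeq start, whose window ends at base 49608014, upstream of the annotated gene start at 49608046. ACAATG stood in the Epyc window 237 bases before the start, also on the minus strand. Omd and Fmod held none of the 3 motifs, nor did Bgn and Prelp. Of all windows 12.4% held TATAAA, 10.7% ACAATG and 14.0% TGTGGT, so these matches describe the letters and name no bound site. The RefSeq table used here held windows for 8 of the 10 members, and none for Dcn or Lum.

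Each age came as 1 table of UMI counts (unique molecular identifiers, 1 per captured RNA molecule), in which the cells of the 4 samples listed per age could not be told apart, so there was 1 library per age, no test between ages, and age and library cannot be told apart. After filtering, 6809 cells with a median of 18143 UMIs remained at P10 and 6342 cells with a median of 14683.5 UMIs at 8 weeks, and 10 cell barcodes occurred in both. The 10 members made up 1.02% of all UMIs at P10 and 0.871% at 8 weeks. Levels are summed UMIs per 1000000 gene UMIs of a class (CPM), with the exact Poisson 95% interval in brackets, which covers counting error only. Cells were clustered without the 10 members and 9 related genes, and clusters were named from fixed markers, none of which is a member. The classes at P10 were 4711 chondrocyte-like, 828 tendon fibroblast-like, 287 nucleus pulposus (NP)-like, 280 hypertrophic chondrocyte-like and 247 connective fibroblast-like cells, with 28 to 107 cells in each of 6 smaller classes. At 8 weeks they were 2305 NP-like, 1978 fibrochondrocyte-like, 724 chondrocyte-like and 708 hypertrophic chondrocyte-like cells, with up to 126 cells in each other class and 247 unnamed cells. In NP-like cells the markers T (brachyury) and Krt8 stood at 1357 and 3745 CPM at P10 and at 1479 and 2828 CPM at 8 weeks, against 1.40 and 3.02, and 19.0 and 13.5 CPM, in chondrocyte-like cells, while Noto had 0 UMIs at both ages and Foxa2 was higher in chondrocyte-like cells. The markers of the other main type, summed over 12 chondrocyte genes, came to 11436 and 13086 CPM in NP-like cells and to 107976 and 61420 CPM in chondrocyte-like cells.

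The family was carried mainly by the fibrous and cartilage-type classes. Its 10 genes took 2.19% of the UMIs of tendon fibroblast-like cells and 1.46% of those of connective fibroblast-like cells at P10, and 1.93% of those of fibrochondrocyte-like cells at 8 weeks. In NP-like cells the share was 0.261% at P10 and 0.345% at 8 weeks. After thinning to 2000 UMIs per cell, a chondrocyte-like cell had UMIs of a median of 5 members at P10 and 4 at 8 weeks, a fibrochondrocyte-like cell of 5, and an NP-like cell of 1 at P10 and 2 at 8 weeks. No member was seen in 17.6% of the thinned NP-like cells at P10 and in 5.62% at 8 weeks. Prelp, Fmod and Bgn were the most evenly spread members over the 29 groups of at least 50 cells of 1 cluster and age, with a log2 span from the lowest to the highest group of 6.37, 6.64 and 6.84, and Dcn, Lum and Omd were the least evenly spread, with 10.70, 10.30 and 10.17. The heat maps of level by class show this spread for all members. With the libraries clustered separately, 5 of the 10 members had another highest class at 8 weeks, tendon fibroblast-like cells for Bgn, Fmod, Prelp and Omd and mural-like cells for Aspn.

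**Figure D1:**
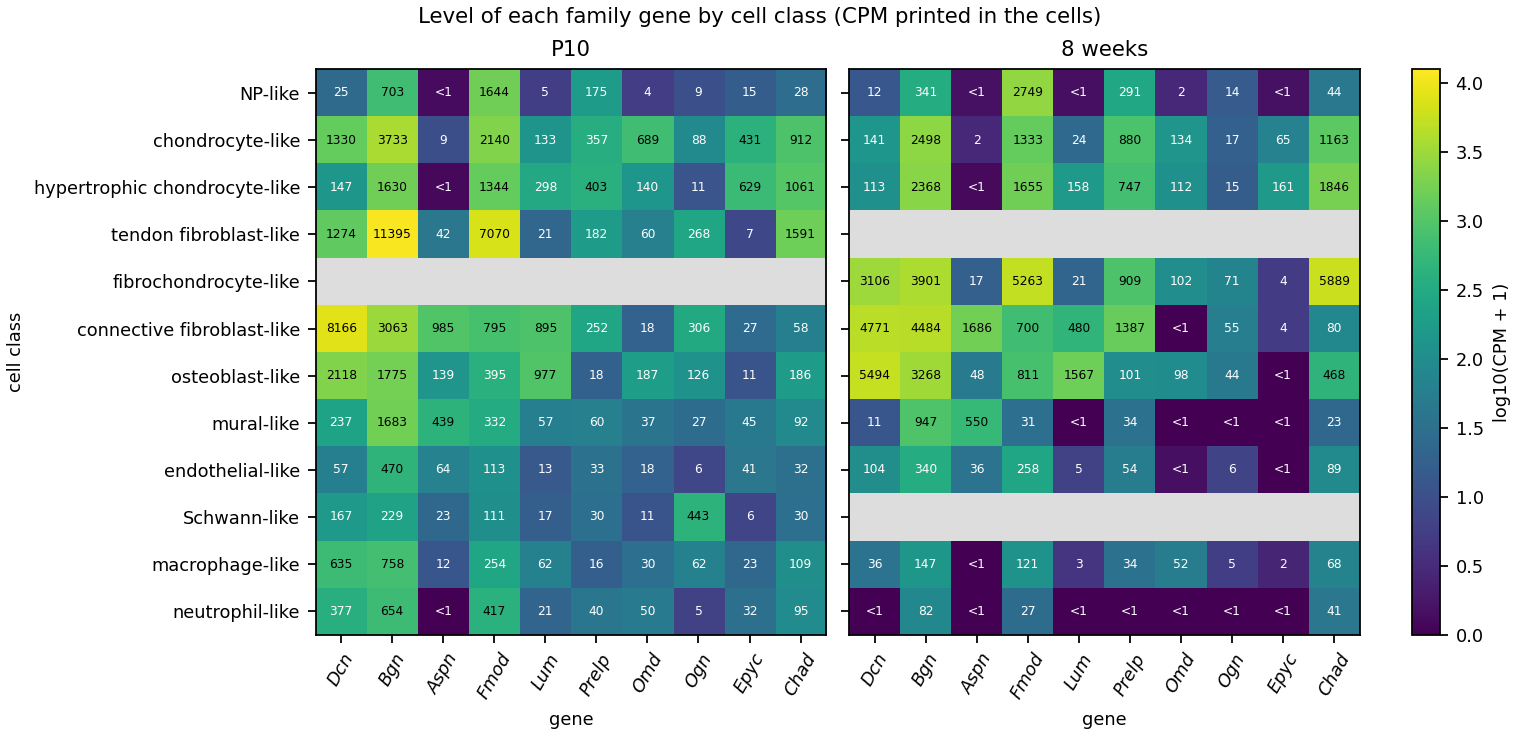
Levels of the 10 members (columns, by symbol) in 12 marker-named classes (rows) at P10 and at 8 weeks, as summed UMIs per 1000000 gene UMIs (CPM, printed in each cell) with colour on a log10(CPM + 1) scale; grey marks classes with under 10 cells at that age. NP-like cells are bright (high) for Fmod and dark (low) for Lum, Aspn, Omd and Epyc at both ages.

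Dcn, the dermatan sulfate proteoglycan of fibrous tissue, was highest in connective fibroblast-like cells at P10, with 8166 CPM [8059.5 to 8274]. Among classes of at least 50 cells, chondrocyte-like cells followed with 1330.4 CPM [1323 to 1338] and tendon fibroblast-like cells with 1274 CPM [1254 to 1293]. Hypertrophic chondrocyte-like cells had 147 CPM [139.9 to 155], and the 28 osteoblast-like cells had 2118 CPM [1998 to 2242]. At 8 weeks Dcn was highest in the 93 osteoblast-like cells with 5494 CPM [5380.5 to 5609]. The 22 connective fibroblast-like cells had 4771 CPM [4497 to 5057] and fibrochondrocyte-like cells 3106 CPM [3086 to 3126]. Chondrocyte-like cells then had 141 CPM [135 to 148], so the cartilage-type class that held Dcn at P10 was low and the fibrous class was high. NP-like cells had the lowest level of the classes of at least 50 cells at both ages, 24.7 CPM [21 to 28.9] from 155 UMIs and 12.1 CPM [11.1 to 13.1] from 531 UMIs. Those UMIs came from few cells, since the 10% of NP-like cells with the most Dcn held 87.7% of them at P10 and all of them at 8 weeks.

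Bgn, the X-linked relative of Dcn, was found in every class of at least 50 cells. At P10 it was highest in tendon fibroblast-like cells with 11395 CPM [11337 to 11452], followed by chondrocyte-like cells with 3733 CPM [3721 to 3745] and connective fibroblast-like cells with 3063 CPM [2997 to 3129]. NP-like cells had 703 CPM [682 to 724], a level whose interval met those of macrophage-like cells (758 CPM) and neutrophil-like cells (654 CPM). At 8 weeks, among classes of at least 50 cells, fibrochondrocyte-like cells led with 3901 CPM [3879 to 3924] and osteoblast-like cells had 3268 CPM [3181 to 3357]. Chondrocyte-like and hypertrophic chondrocyte-like cells were close to each other with 2498 CPM [2469.8 to 2526] and 2368 CPM [2344 to 2392]. The 22 connective fibroblast-like cells stood higher, with 4484 CPM [4219 to 4762]. NP-like cells had 341 CPM [336 to 347], not apart from endothelial-like cells with 339.6 CPM [315 to 365].

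Aspn, a relative of decorin with a run of aspartate residues, had its highest levels in connective fibroblasts and vessel-wall cells. Connective fibroblast-like cells had 985 CPM [949 to 1023] at P10, and the 45 mural-like cells, which wrap vessels, had 439 CPM [376 to 509]. At 8 weeks the 22 connective fibroblast-like cells had 1686 CPM [1525 to 1859] and 32 mural-like cells 550.0 CPM [464 to 648]. Osteoblast-like cells had 47.8 CPM [37.8 to 59.7] and fibrochondrocyte-like cells 17.1 CPM [15.6 to 18.6]. NP-like cells had 2 UMIs of Aspn at P10 and 24 at 8 weeks, and hypertrophic chondrocyte-like cells 2 at P10. The highest levels thus lay in the fibroblasts and vessel-wall cells of both ages, and the NP-like cells were at or near 0.

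Fmod, a keratan sulfate proteoglycan of tendon and cartilage that helps fibrils to mature, was the member with the most UMIs in NP-like cells. Its level there was 1644 CPM [1612 to 1676] at P10 and 2749 CPM [2733 to 2764] at 8 weeks. At P10 the NP-like level stood between those of chondrocyte-like cells, 2139.9 CPM [2131 to 2149], and of hypertrophic chondrocyte-like cells, 1344 CPM [1321 to 1368], and tendon fibroblast-like cells led with 7069.9 CPM [7025 to 7115]. At 8 weeks, among classes of at least 50 cells, NP-like cells came directly after fibrochondrocyte-like cells, which had 5263 CPM [5237 to 5289], and before hypertrophic chondrocyte-like and chondrocyte-like cells with 1655 CPM [1635 to 1675] and 1333 CPM [1313 to 1354]. All these neighbours were apart by more than their intervals. NP-like cells held 37.3% of all Fmod UMIs at 8 weeks and 3.11% at P10, when they were far fewer.

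Lum, the keratan sulfate proteoglycan best known from the cornea, was low in the tendon fibroblast-like cells, which had the highest level of Fmod at P10. At P10 it was highest in the 28 osteoblast-like cells with 977 CPM [896 to 1063] and in connective fibroblast-like cells with 895 CPM [860.3 to 931]. Hypertrophic chondrocyte-like cells had 298 CPM [288 to 309.5], chondrocyte-like cells 133 CPM [131 to 135] and tendon fibroblast-like cells 21.2 CPM [18.8 to 23.9]. At 8 weeks osteoblast-like cells had 1567 CPM [1506 to 1629], hypertrophic chondrocyte-like cells 158 CPM [152 to 164], and chondrocyte-like and fibrochondrocyte-like cells 24.4 CPM [21.6 to 27.3] and 20.7 CPM [19.1 to 22.4], which were not apart. NP-like cells had 30 UMIs at P10 and 21 at 8 weeks. Osteoblast-like cells stood at the upper end at both ages, at P10 with an interval that met that of connective fibroblast-like cells.

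Prelp, which binds heparan sulfate as well as collagen, had the flattest profile. At P10 hypertrophic chondrocyte-like cells had 403 CPM [391 to 416], chondrocyte-like cells 357 CPM [353 to 360.5] and connective fibroblast-like cells 252 CPM [234 to 272]. NP-like cells with 175 CPM [165 to 186] were not apart from tendon fibroblast-like cells with 182 CPM [175 to 189]. At 8 weeks fibrochondrocyte-like, chondrocyte-like and hypertrophic chondrocyte-like cells had 909 CPM [898 to 919], 879.7 CPM [863 to 897] and 747 CPM [733 to 760.4], and NP-like cells 291 CPM [286 to 296]. The 22 connective fibroblast-like cells stood higher, with 1387 CPM [1241 to 1545]. Blood cells were far below, with 16.2 and 34.0 CPM in macrophage-like cells. Within the class the cycling chondrocyte-like clusters were the highest, cluster 5 with 842 CPM at P10 and cluster 23, of 67 cells, with 1421 CPM at 8 weeks, while the P10 cluster with the most Omd, cluster 2, had 53.7 CPM.

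Omd, first described in bone and bound to mineralised matrix, lay mostly in chondrocyte-like cells at P10, which made up 4711 of 6809 cells and held 96.6% of its UMIs. Their level was 689 CPM [684 to 695], against 140.0 CPM [133 to 148] in hypertrophic chondrocyte-like and 60.4 CPM [56.3 to 64.8] in tendon fibroblast-like cells. The class was not even, since cluster 2 (led by A2m, Lox and Frzb) had 1691 CPM and cluster 7 (led by Rbp4 and Gdf5) 1310.2 CPM, against 92.7 CPM in the cycling cluster 5. At 8 weeks its highest level was in the unnamed cells, 478 CPM [455 to 501], nearly all of cluster 26, which was led by Ibsp, Cxcl13 and Myoc. Chondrocyte-like, hypertrophic chondrocyte-like and fibrochondrocyte-like cells then had 134 CPM [128 to 141], 112 CPM [107 to 118] and 102 CPM [98.8 to 106]. NP-like cells had 28 UMIs at P10 and 89 at 8 weeks.

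Ogn, also called mimecan, had at P10 its highest summed level in the 60 Schwann-like cells, the glia of nerves, with 443 CPM [393 to 497]. Connective fibroblast-like cells followed with 306 CPM [286 to 328] and tendon fibroblast-like cells with 268 CPM [259 to 277]. The Schwann-like sum came from 30 of 60 cells, and the 10% with the most Ogn held 55.8% of it. By share of thinned cells with a UMI, Schwann-like cells did not lead, with 30.5% [19.2 to 43.9]. Connective fibroblast-like cells had 36.8% and tendon fibroblast-like cells 38.5%. Chondrocyte-like cells had 87.6 CPM [85.8 to 89.5]. At 8 weeks fibrochondrocyte-like cells had 70.7 CPM [67.7 to 73.7], osteoblast-like cells 44.2 CPM [34.6 to 55.6], and chondrocyte-like cells 17.3 CPM [15 to 19.8]. NP-like cells had 8.93 CPM [6.74 to 11.6] at P10 and 13.8 CPM [12.7 to 14.9] at 8 weeks, not apart from hypertrophic chondrocyte-like cells at either age. All classes of at least 50 cells at 8 weeks were below these leading classes of P10.

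Epyc, a proteoglycan of growth cartilage, followed the chondrocytes. At P10 it was highest in hypertrophic chondrocyte-like cells with 629 CPM [613 to 645] and chondrocyte-like cells with 431 CPM [427 to 435], and tendon fibroblast-like cells had 6.67 CPM. At 8 weeks the same order held with 161 CPM [155 to 167] and 64.5 CPM [60.1 to 69.2], and fibrochondrocyte-like cells had 4.30 CPM. NP-like cells had 94 UMIs at P10, 15 CPM [12.1 to 18.3], and 23 at 8 weeks, 0.523 CPM [0.331 to 0.784]. Endothelial-like and osteoblast-like cells had 0 UMIs at 8 weeks, which allows up to 1.40 and 1.84 CPM.

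Chad, a cartilage protein that binds collagen and integrins, was highest in tendon fibroblast-like cells at P10 with 1591 CPM [1569.8 to 1613], ahead of hypertrophic chondrocyte-like cells with 1061 CPM [1041 to 1082] and chondrocyte-like cells with 912 CPM [906 to 918]. At 8 weeks fibrochondrocyte-like cells led with 5889 CPM [5861 to 5917], and hypertrophic chondrocyte-like and chondrocyte-like cells had 1846 CPM [1825 to 1868] and 1163 CPM [1144 to 1183]. The clusters of that class differed, with 7639 CPM in cluster 20 and 3938 CPM in cluster 25. NP-like cells had 27.9 CPM [23.9 to 32.4] and 43.6 CPM [41.6 to 45.5], below the macrophage-like sums of 109 and 68.0 CPM. Those sums rest on few cells, 47 UMIs in 6 of 65 cells at P10 and 42 UMIs in 15 of 78 cells at 8 weeks.

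Free RNA in droplet data puts UMIs of abundant genes into cells that do not make them, so the share of thinned NP-like cells with a UMI (278 cells at P10, 2208 at 8 weeks) was set beside that of macrophage-like cells (56 and 72) and of 72 neutrophil-like cells at P10, with exact binomial 95% intervals. The median depth before thinning was 16728 and 15460 UMIs in NP-like, 5691 and 7040 in macrophage-like and 2760.5 in neutrophil-like cells. Fmod was present in 72.3% [66.6 to 77.5] of NP-like cells at P10 and 89.4% [88.0 to 90.6] at 8 weeks, against 13.9% [6.87 to 24.1] of neutrophil-like and 10.7% and 6.94% of macrophage-like cells. Prelp was present in 22.7% [17.9 to 28.0] and 40.5% [38.5 to 42.6], against 4.17% of neutrophil-like and 3.57% and 6.94% of macrophage-like cells. Fmod and Prelp thus stood above the blood-cell shares at both ages. Bgn was present in 44.2% [38.3 to 50.3] of NP-like and 37.5% [26.4 to 49.7] of neutrophil-like cells at P10, whose intervals overlapped. The macrophage-like share at P10 was 17.9% [8.91 to 30.4], with an interval below that of NP-like cells. At 8 weeks Bgn was in 32.7% [30.7 to 34.7] of NP-like against 6.94% [2.29 to 15.5] of macrophage-like cells. Dcn (3.96% and 1.40%) and Chad (3.24% and 5.43%) were at or below the blood-cell shares, so no level above free RNA is claimed for them in NP-like cells. Thinning removes more UMIs from the deeper NP-like cells, so equal thinned shares cannot show that these UMIs are background. The macrophage-like Dcn at P10 also came from few cells, 275 UMIs in 10 of 65. Omd, Ogn, Epyc, Lum and Aspn were each in at most 2.72% of thinned NP-like cells, and Epyc and Lum in 0 of 2208 at 8 weeks. Without thinning, the NP-like shares were 88.9% and 95.1% for Fmod, 74.2% and 86.2% for Prelp and 79.1% and 67.3% for Bgn.

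NP-like cells were then compared with the other disc classes inside each library, as the log2 ratio of summed levels with an exact conditional binomial 95% interval, and a gene was called where the ratio passed 2-fold. Against chondrocyte-like cells at P10, 9 of the 10 members were called lower and 0 higher, where 16% of 12096 genes tested were called lower and 21.8% higher. The median gene had a log2 ratio of 0.25, and relative to it 19.3% of genes were called lower and 15.7% higher. The ratio was -7.27 [-7.86 to -6.74] for Omd, -5.75 [-5.99 to -5.52] for Dcn and -5.03 [-5.25 to -4.82] for Chad, the 3 most negative ratios of the 10 members. Bgn had -2.41 [-2.45 to -2.37] and Prelp -1.03 [-1.11 to -0.94], and Fmod, the member not called, had -0.38 [-0.41 to -0.35]. At 8 weeks 7 of the 9 members with at least 100 UMIs were called lower (14.5% of 11885 genes were) and 1 higher (25.7% were). The median gene had a log2 ratio of 0.35, and relative to it 19.6% of genes were called lower and 17.3% higher. The member called higher was Fmod, with 1.04 [1.02 to 1.07], and this passed 2-fold by little: relative to the median gene it was 0.70. Epyc had -6.95 [-7.61 to -6.35], Omd -6.05 [-6.37 to -5.74], Chad -4.74 [-4.81 to -4.67], Dcn -3.55 [-3.69 to -3.41], Bgn -2.87 [-2.90 to -2.84] and Prelp -1.59 [-1.63 to -1.56]. Ogn, with -0.33 [-0.56 to -0.09], was between the limits. At both ages Fmod had the highest ratio of the members tested.

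Against hypertrophic chondrocyte-like cells 7 of the 9 members tested were called lower and 0 higher at each age, beside 12.9% lower and 19.7% higher of 8369 genes at P10 and 13% and 20.7% of 11959 at 8 weeks. Relative to the median gene (0.13 and 0.22) these were 15% and 17.3%, and 16.1% and 16.5%. Fmod again was not called, with 0.29 [0.25 to 0.33] at P10 and 0.73 [0.71 to 0.75] at 8 weeks, nor was Ogn, with -0.28 [-0.77 to 0.20] and -0.11 [-0.34 to 0.11]. At 8 weeks Lum had -8.37 [-9.06 to -7.75] and Epyc -8.27 [-8.93 to -7.68], from 21 and 23 UMIs in NP-like cells. Against tendon fibroblast-like cells at P10 8 of 10 members were called lower (11.6% of 8724 genes were) and 1 higher (24% were). The median gene had a log2 ratio of 0.37, and relative to it 16.9% of genes were called lower and 14.7% higher. Chad, Dcn, Ogn and Bgn had -5.83 [-6.06 to -5.62], -5.69 [-5.92 to -5.46], -4.91 [-5.31 to -4.52] and -4.02 [-4.06 to -3.98], and here Fmod was among the lower, with -2.10 [-2.13 to -2.08]. Prelp did not part the classes, with -0.06 [-0.16 to 0.05]. The member called higher was Epyc with 1.17 [0.73 to 1.60], from 94 against 88 UMIs, and it was -0.23 once cells holding markers of another class were left out. Against fibrochondrocyte-like cells at 8 weeks 9 of 10 were called lower (11.8% of 12171 genes were) and 0 higher (22.5% were, or 16% lower and 15% higher relative to the median gene at 0.39), with -8.01 [-8.13 to -7.88] for Dcn, -7.08 [-7.14 to -7.01] for Chad and -0.94 [-0.95 to -0.93] for Fmod.

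**Figure D2:**
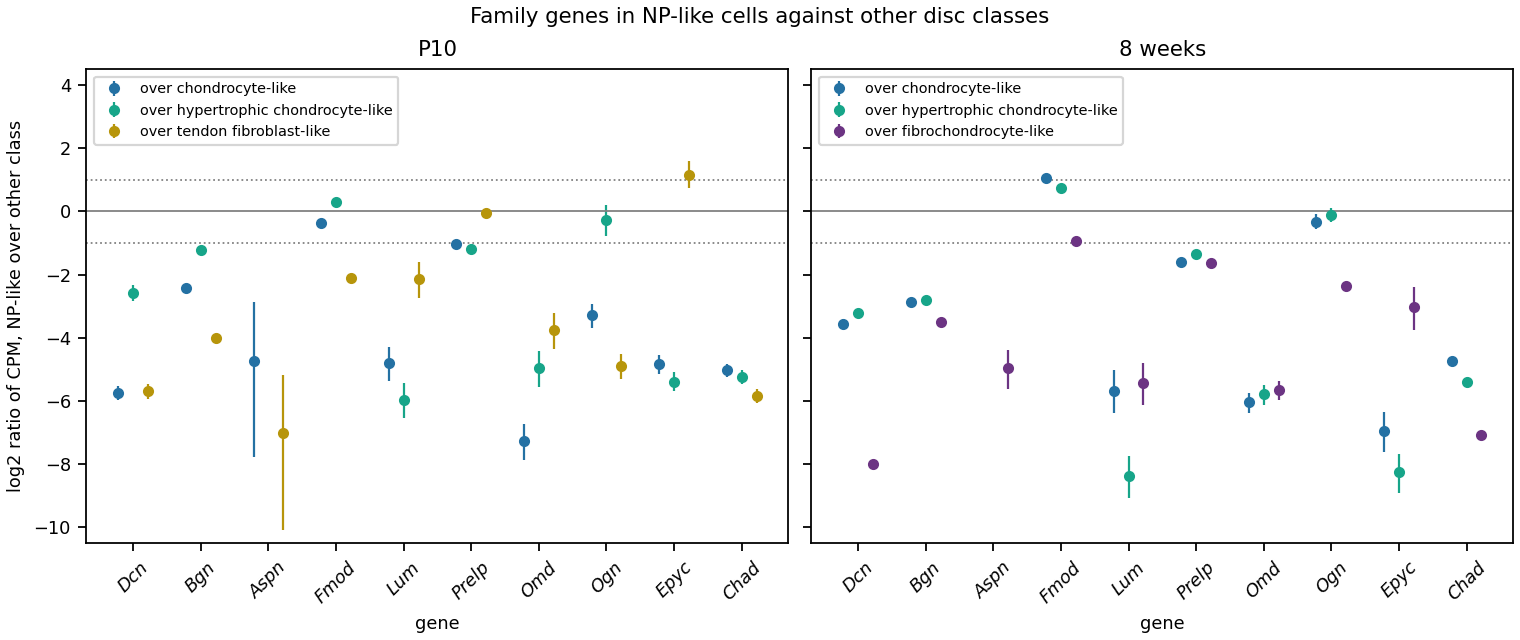
Log2 ratio of the level in NP-like cells over that in other disc classes at P10 and at 8 weeks for each member that reached 100 UMIs; points are ratios, bars exact conditional binomial 95% intervals and dotted lines 2-fold. Most members lie far below 0, and Fmod lies between -0.94 and 1.04 except against tendon fibroblast-like cells, where it is -2.10.

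Between the ages, NP-like cells held mainly clusters 17 and 16 at P10 (190 and 52 cells) and clusters 16, 14 and 19 at 8 weeks (995, 925 and 250 cells). Fmod went from 1644 to 2749 CPM, a log2 ratio of 0.74 [0.71 to 0.77], and Prelp from 175 to 291 CPM, 0.73 [0.65 to 0.82]. Neither passed 2-fold, and the median gene of the class itself had 0.36, so relative to it they stood 0.38 and 0.38 higher. Bgn went the other way, from 703 to 341 CPM, -1.04 [-1.09 to -0.99], or -1.40 relative to the median gene. Its P10 level was uneven over the clusters, with 309 CPM in cluster 17 and 1226 CPM in cluster 16. The Bgn level in blood cells was also lower at 8 weeks. It went from 758 to 147 CPM in macrophage-like cells and from 654 to 82.1 CPM in neutrophil-like cells (26 cells at 8 weeks). The 10% of macrophage-like cells with the most Bgn held 93.6% of its UMIs at P10 and 93.4% at 8 weeks. In neutrophil-like cells at P10 this share was 86.3%, so few cells set these sums. The part of free RNA in the lower NP-like level was not tested. Of the 8 members with at least 100 UMIs 4 were called lower at 8 weeks and 0 higher, where 2.65% of 11308 genes were called lower and 15.7% higher (6.13% and 7.38% relative to the median gene). The other called members were Epyc with -4.84 [-5.57 to -4.17], Omd with -1.14 [-1.77 to -0.47] and Dcn with -1.03 [-1.29 to -0.77], all from 23 to 531 UMIs. The thinned shares of these 3 in NP-like cells were at or near those of blood cells, for Dcn as given above. At P10 a UMI of Epyc was in 1.44% and of Omd in 1.44% of thinned NP-like cells. Macrophage-like cells had 1.79% and 1.79% and neutrophil-like cells 5.56% and 0%. The 3 ratios are therefore not read as a change in NP-like cells. Chad and Ogn, at 0.64 [0.42 to 0.87] and 0.63 [0.23 to 1.05], changed sign to -0.43 and -0.10 with the automatic doublet threshold. Lum and Aspn did not reach 100 UMIs. Without cells that held markers of another class (9 at P10 and 53 at 8 weeks, with median UMIs of 46880 and 44086), 2 members were called lower, and with cells thinned to 2000 UMIs 0 were, Bgn then having -0.88. A member under 100 UMIs was not counted there, and the ratios of Dcn, Omd and Epyc were -1.57, -2.06 and -3.76 without those cells and -1.40, -1.82 and -3.99 after thinning.

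Cluster 16, led by Sostdc1 and Nrn1, was the one NP-like cluster without cycling genes that had at least 50 cells at both ages, and was compared on its own after its values had been seen. Inside it Bgn went from 1226 to 409.7 CPM, -1.58 [-1.65 to -1.51], and Fmod from 2265 to 3086 CPM, 0.45 [0.40 to 0.50]. Prelp had 0.38 [0.22 to 0.54] and Dcn 0.31 [-0.55 to 1.34]. The median of 10163 genes was 0.37 there, so relative to it Bgn stood at -1.95, while Fmod at 0.08 and Prelp at 0.0061 were at the median gene. The NP-like clusters differed among themselves: cluster 17, led by Car1, Tagln and Acta2, had 1060.4 CPM of Fmod and 99.7 CPM of Prelp at P10. Bgn in this cluster, which held 190 of the 287 P10 cells, was at 309 CPM [290 to 329]. That was not above the 341 CPM of all NP-like cells at 8 weeks. The higher Bgn level of the class at P10 lay in other clusters, with 1226 CPM in cluster 16 (52 cells) and 964 CPM in cluster 9 (35 cells). At 8 weeks cluster 14, led by Inmt, Irf7 and Wnt16, had 1446 CPM of Fmod and 98.7 CPM of Bgn, and cluster 19, led by Ppp1r3c, had 3586 and 326 CPM. Fmod and Bgn both were lowest, among the 8-week NP-like clusters, in cluster 14.

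In chondrocyte-like cells most members were much lower at 8 weeks. Of 10 members 6 were called lower and 1 higher, where 6.6% of 12214 genes were called lower and 24.5% higher. The median gene had a log2 ratio of 0.40, and relative to it 12.8% of genes were called lower and 14.2% higher. Dcn had -3.23 [-3.30 to -3.17], Epyc -2.74 [-2.84 to -2.64], Lum -2.45 [-2.62 to -2.28], Omd -2.36 [-2.44 to -2.29], Ogn -2.34 [-2.55 to -2.14] and Aspn -2.16 [-2.82 to -1.56], the last from 23 UMIs at 8 weeks. Prelp was the member called higher, from 357 to 879.7 CPM, 1.30 [1.27 to 1.33], and stood 0.90 above the median gene. Bgn had -0.58 [-0.60 to -0.56] and Fmod -0.68 [-0.71 to -0.66], while Chad had 0.35 [0.32 to 0.38] and was at the median gene (-0.05 relative to it). Different clusters make up the class at the 2 ages, clusters 0, 1, 2, 4, 5 and 7 at P10 and clusters 23 and 24 at 8 weeks. The P10 clusters with the lowest Dcn, 4 and 5, had 572 and 596 CPM, above the 152 and 23.4 CPM of clusters 24 and 23. Omd did not keep the clusters of the ages apart in that way, since cluster 24 with 153 CPM lay above clusters 4 and 5 with 116 and 92.7 CPM.

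Hypertrophic chondrocyte-like cells, the enlarged cells next to bone, came from cluster 8 at P10 and cluster 22 at 8 weeks for the most part. Epyc was the 1 member called lower of the 9 tested, with -1.97 [-2.03 to -1.90], and 0 were called higher, beside 4.76% lower and 23.7% higher of 9722 genes (11.6% and 13.8% relative to the median gene). Prelp had 0.89 [0.84 to 0.94], Chad 0.80 [0.77 to 0.83], Bgn 0.54 [0.51 to 0.57] and Fmod 0.30 [0.27 to 0.33], around the median gene of 0.37. Lum had -0.92 [-1.0 to -0.84], Dcn -0.39 [-0.49 to -0.29] and Omd -0.32 [-0.42 to -0.22], under it. In endothelial-like cells, which line vessels, Chad and Fmod were called higher with 1.48 [1.08 to 1.90] and 1.19 [0.97 to 1.42] (6.13% of 5771 genes were called higher and 2.34% lower, or 4.38% and 2.96% relative to the median gene), but 0 members were once the cells with markers of another class were left out, 30 cells at each age.

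The tendon fibroblast-like class lay at P10 and the fibrochondrocyte-like class at 8 weeks, so neither could be followed over age. Cluster 20, the larger of the latter, held 7 of 8 tendon markers as well as 6 of 7 fibrochondrocyte markers 2-fold above other cells, and it was set beside the tendon fibroblast-like cluster 6 (1093 and 828 cells), a comparison chosen after the clusters had been seen. The 2 clusters are not shown to be the same cells at 2 ages. When the libraries were clustered separately, tendon fibroblast-like cells were named at both ages (764 and 1033 cells), and they gave the same numbers of members called higher and lower. At 8 weeks 4 members were called higher and 2 lower, where 17.3% of 9629 genes were called higher and 4.8% lower. The median gene had a log2 ratio of 0.28, and relative to it 8.54% of genes were called lower and 10.9% higher. Prelp went from 182 to 1086 CPM, 2.58 [2.51 to 2.64], and Chad from 1591 to 7627 CPM, 2.26 [2.24 to 2.28]. Dcn went from 1274 to 4757 CPM, 1.90 [1.88 to 1.93], and Omd from 60.4 to 172 CPM, 1.51 [1.39 to 1.62]. In the opposite direction Ogn went from 268 to 78.7 CPM, -1.77 [-1.86 to -1.67], and Bgn from 11395 to 5098 CPM, -1.16 [-1.17 to -1.15]. Fmod was level, with 0.15 [0.14 to 0.16], as was Epyc at a low level, with -0.05 [-0.48 to 0.37]. Dcn and Bgn, which share structure and chain type, thus had opposite signs here, and Omd and Ogn, which are neighbours on chromosome 13, did too.

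**Figure D3:**
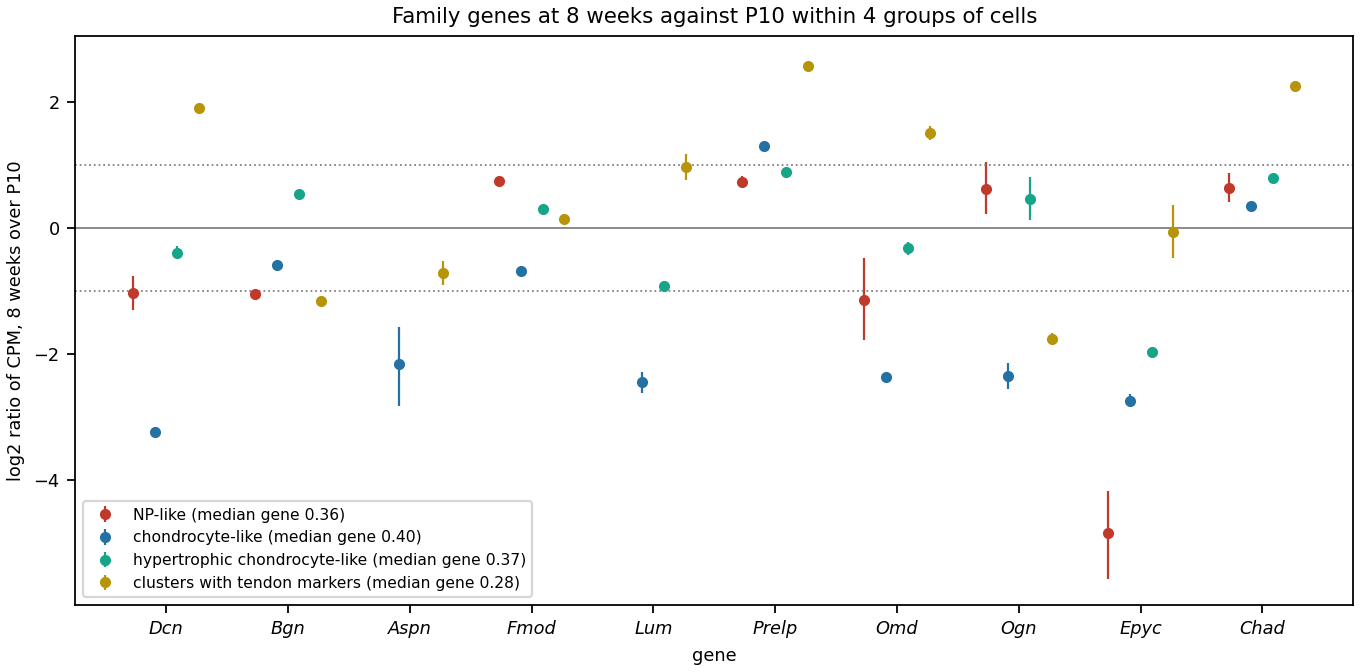
Log2 ratio of the level at 8 weeks over that at P10 for each member in NP-like, chondrocyte-like and hypertrophic chondrocyte-like cells and in the clusters with tendon markers; points are ratios, bars exact conditional binomial 95% intervals and dotted lines 2-fold, and members under 100 UMIs are not drawn. Dcn and Omd lie above 2-fold in the tendon-marker clusters (1.90 and 1.51) and below it in chondrocyte-like cells (-3.23 and -2.36).

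The reporter was read from the WPRE4 sequence that the submitters added to the reference, and NP-like cells with at least 10 of its UMIs were taken as labelled (190 of 287 at P10 and 1290 of 2305 at 8 weeks). Labelled cells were deeper, with a mean of 23126 against 19359 UMIs at P10 and 20336 against 17499 at 8 weeks, and a cell with more UMIs reaches the limit more easily. The major NP-like members Fmod, Prelp and Bgn stayed within 2-fold between labelled and other cells, with Bgn lower in labelled cells at both ages. Fmod had a log2 ratio of 0.13 [0.07 to 0.20] at P10 and -0.05 [-0.07 to -0.04] at 8 weeks, Prelp -0.17 [-0.35 to 0.02] and -0.02 [-0.07 to 0.03], and Bgn -0.35 [-0.44 to -0.26] and -0.18 [-0.22 to -0.13]. At P10 1 of 7 members tested was called lower (0.508% of 7871 genes were) and 0 higher (0.699%, or 0.508% and 0.724% relative to the median gene), namely Epyc with -1.79 [-2.42 to -1.17], from 38 against 56 UMIs. At 8 weeks 1 of 7 was called higher (0.214% of 12130 genes were) and 0 lower (1.25%, or 0.231% and 1.03% relative to the median gene), namely Omd with 1.04 [0.33 to 1.81], from 67 against 22 UMIs. Without cells holding markers of another class these were -0.55 and 0.56, so neither stayed past 2-fold.

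Genes that work with the family were counted from fixed lists, with up to 4 of the most abundant named from each. In NP-like cells, between the ages, 5 of 19 genes tested were called higher and 0 lower at a list median of 0.55 for the assembly of glycosaminoglycan chains, against 0.36 and 15.7% called higher and 2.65% lower over all genes. Xylt1, which starts the chains, went from 156 to 392 CPM, log2 ratio 1.33, and Csgalnact1, which commits them to chondroitin sulfate, from 171 to 339 CPM, log2 ratio 0.99. For keratan sulfate assembly 2 of 4 genes tested were called higher and 0 lower at a list median of 0.87, with 1.07 for Chst2, 1.23 for Chst5 and 0.38 for Chst1, which add sulfate, and 0.67 for B4galt1, which adds galactose, against the same shares of all genes. In the same library at 8 weeks, all 4 keratan sulfate genes tested were called higher in NP-like than in hypertrophic chondrocyte-like cells at a list median of 1.55, where 20.7% of all genes were, with 2.04 for Chst1 and 2.07 for Chst5. Over chondrocyte-like cells, 2 of 4 were (25.7% of all genes), with 1.44 for Chst1 and 1.23 for B4galt1, and over fibrochondrocyte-like cells 2 of 5 were called higher and 3 lower (22.5% and 11.8% of all genes). Fmod, whose core protein can carry these chains, had 0.73 in the comparison with hypertrophic chondrocyte-like cells and 1.04 in that with chondrocyte-like cells.

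For collagens and other fibril partners of the family, 1 of 16 genes tested were called higher and 3 lower at a list median of 0.17 in NP-like cells between the ages, where 15.7% and 2.65% of all genes were. Col2a1 (type II collagen) went from 4293 to 2212 CPM, log2 ratio -0.96, and Fn1 (fibronectin) from 5861 to 11312 CPM, log2 ratio 0.95. In chondrocyte-like cells 3 of 17 genes tested were called higher and 7 lower at a list median of -0.12 (24.5% and 6.6% of all genes), with -1.41 for Col2a1, -1.39 for Col1a1 and 1.20 for Fn1. NP-like cells were lower than chondrocyte-like cells at P10 for 11 of 17 fibril partners, with a list median of -3.33 (16% of all genes were lower), and at 8 weeks for 9 of 16, with -1.65 (14.5% of all genes). Several of these collagens are among the markers that named the classes, so their difference between classes was partly set by the naming. In the tendon-marker clusters 4 of 17 genes tested were called higher and 2 lower at a list median of -0.08 (17.3% and 4.8% of all genes), with 2.01 for Fn1.

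Among growth factors and receptors reported to bind the family, 4 of 16 genes tested were called higher and 1 lower at a list median of 0.52 in NP-like cells (15.7% and 2.65% of all genes), with 1.32 for Lrp1, an endocytic receptor for decorin, and -1.96 for Bmp2. In chondrocyte-like cells 5 of 16 genes tested were called higher and 1 lower at a list median of 0.56, shares near the 24.5% and 6.6% of all genes, with 2.25 for Tgfb2 and 1.84 for Bmp2, so Bmp2 had opposite signs in the 2 classes, a difference that was not tested. Among matrix proteases and their inhibitors, 1 of 11 genes tested were called higher and 2 lower at a list median of -0.10 in NP-like cells (15.7% and 2.65% of all genes), and Htra1, a secreted serine protease that cleaves members of the family, had 0.73. Htra1 was far higher in NP-like than in chondrocyte-like cells, with 3.53 at P10 and 4.04 at 8 weeks. In the tendon-marker clusters 3 of 13 genes tested were called higher and 7 lower at a list median of -1.10 (17.3% and 4.8% of all genes), with -1.10 for Htra1, -1.30 for Timp1 and 2.28 for Timp3. Among tendon and cartilage transcription factors, 3 of 8 genes tested were called higher and 1 lower at a list median of 0.74 in NP-like cells (15.7% and 2.65% of all genes). In chondrocyte-like cells 5 of 9 genes tested were called higher and 1 lower at a list median of 1.05 (24.5% and 6.6% of all genes). Sox9, the main cartilage factor, stood at 1.21 and 1.49 in the 2 classes.

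Of 9 further genes of the family, few were expressed. Chadl, a relative of Chad, was in chondrocyte-like cells at 421 CPM at P10 and 818 CPM at 8 weeks and in NP-like cells at 13.4 and 8.82 CPM. Ecm2, the gene before Aspn on chromosome 13, was in tendon fibroblast-like cells at 251 CPM and in fibrochondrocyte-like cells at 289 CPM, a pattern unlike that of Aspn. Kera (keratocan), between Lum and Epyc, was in connective fibroblast-like and tendon fibroblast-like cells at 95.1 and 85.7 CPM at P10 and in fibrochondrocyte-like cells at 2.35 CPM at 8 weeks. In NP-like cells between the ages 1 of 4 tested was called higher, Ecm2 with 1.34 from 1.91 to 4.84 CPM, and 0 lower. Over all genes 15.7% were called higher and 2.65% lower there. In the tendon-marker clusters Kera had -4.27 and Chadl 2.11.

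For each member the 3 genes with the most similar profile were taken by Pearson r of log2(CPM + 1) over the 29 cluster-by-age groups, among 11023 genes, as a description only, since the groups share 2 libraries, their depth and their free RNA. Epyc went with Col9a1 (0.95), Col9a2 (0.92) and Col9a3 (0.91), the 3 chains of type IX collagen, and Chad with Clec3a (0.92), Comp (0.91) and Hoxa11 (0.90), the second of which encodes a cartilage oligomeric matrix protein. Bgn went with Sparc (0.90), Slc1a4 (0.89) and Pycr1 (0.89), where Sparc is a collagen-binding matrix protein. Dcn went with Lox (0.85), Col1a2 (0.84) and Twist1 (0.83), where Lox cross-links collagen. Aspn went with Fstl1 (0.86), Fbln5 (0.85) and Col3a1 (0.84) and Lum with Cthrc1 (0.86), Mmp2 (0.86) and Islr (0.82), genes of fibroblast matrix for the most part. Fmod went with Sec16b (0.87), Ngef (0.86) and Pde4dip (0.85), none of them a matrix gene, and Prelp with Uxs1 (0.86), Pcolce2 (0.85) and Pxylp1 (0.83). Omd went with Mdfi (0.85), Calml3 (0.85) and Smoc2 (0.84) and Ogn with Col14a1 (0.77), Sema3e (0.76) and Selenom (0.74), the lowest values of the 10. Of these 30 genes 12 were also named with Spearman's rho and 15 with finer clusters (resolution 2).

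Among the members themselves, over the same 29 groups, r was 0.75 for Chad and Omd, 0.75 for Chad and Bgn and 0.72 for Prelp and Fmod, and it was lowest for Aspn and Prelp (-0.22). The chromosome 13 neighbours did not share 1 profile, with 0.62 for Aspn and Ogn, 0.39 for Omd and Ogn and 0.12 for Aspn and Omd. Their highest groups by summed level were connective fibroblast-like cells for Aspn (985 CPM), chondrocyte-like cluster 2 for Omd (1691 CPM) and Schwann-like cells for Ogn (443 CPM, from 30 of 60 cells). Cluster 7, led by Rbp4 and Gdf5, held all 3, with 68.2, 1310.2 and 285 CPM. On chromosome 10 r was 0.69 for Dcn and Lum, 0.59 for Lum and Epyc and 0.31 for Dcn and Epyc.

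**Figure D4:**
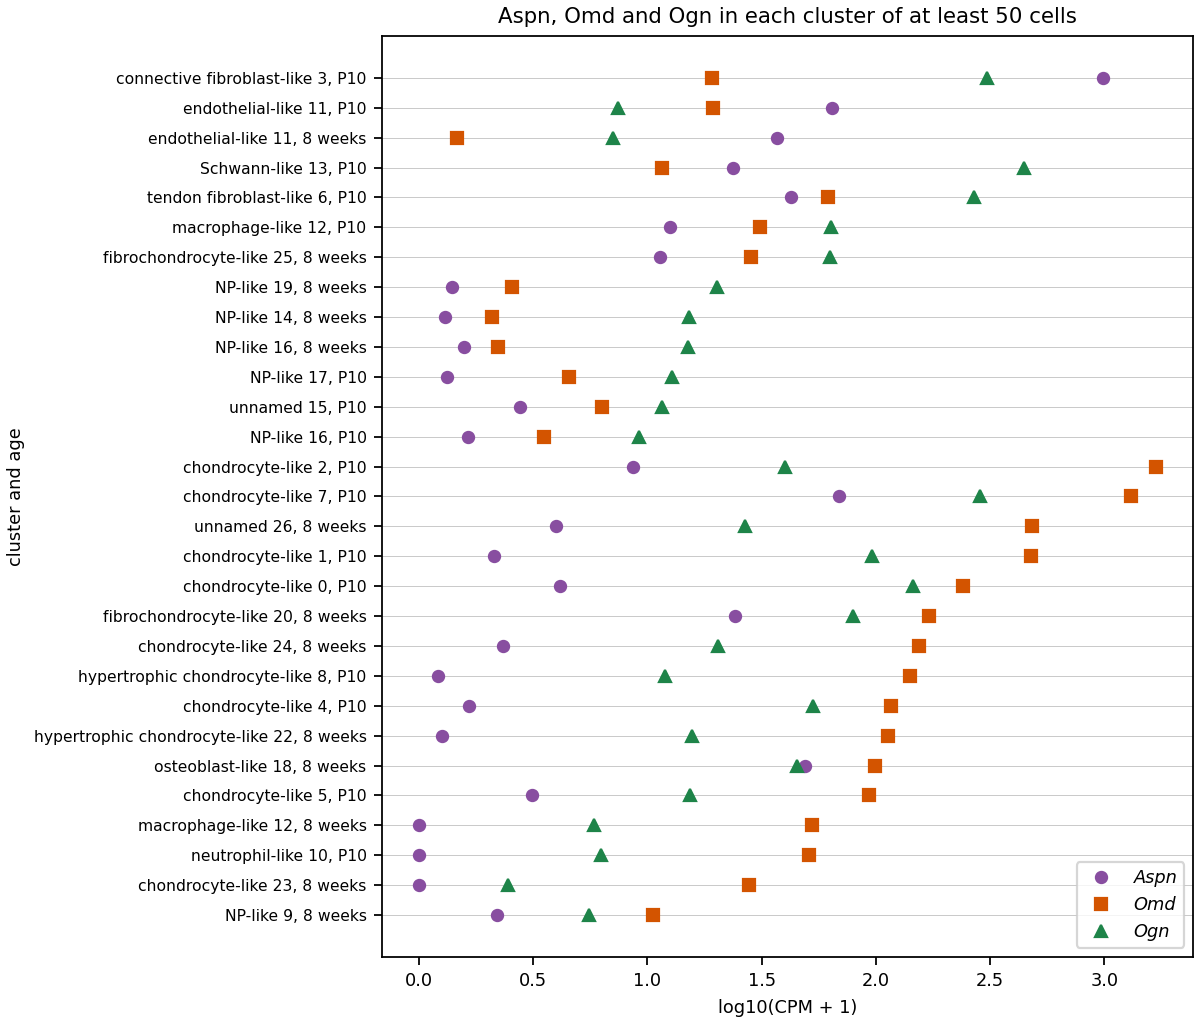
Levels of the chromosome 13 neighbours Aspn, Omd and Ogn, as log10(CPM + 1), in each of the 29 groups of at least 50 cells of 1 cluster and 1 age; each point is 1 gene in 1 group. The 3 genes peak in different groups, Aspn in connective fibroblast-like cells, Omd in chondrocyte-like cluster 2 and Ogn in Schwann-like cells, all at P10.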

How the data were processed

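Single-cell RNA of whole intervertebral discs was measured in 8 listed samples, 4 at P10 and 4 at 8 weeks. The deposited files give raw counts of UMIs per gene and cell, 1 table per age, without a map from cells to samples. Per the submitters' processing notes the tools named were Cell Ranger 3.1.0 and Seurat 3 and the build was mm10, and which step each tool did is not given in the sources used here. A second deposited table per age holds counts of 96 exogenous sequences, among them WPRE4 and TDT.

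Cells with at least 500 genes and 1000 UMIs and at most 15% mitochondrial UMIs were kept, and those with a Scrublet score over 0.25 (expected rate 6%) were left out as doublets, 190 at P10 and 139 at 8 weeks. Scrublet's own threshold called 0 at P10 and was tried as an alternative. Cells of P10 and 8 weeks entered 1 joint clustering (Scanpy 1.11.5, 2000 variable genes without the family, 30 components, 15 neighbours, Leiden resolution 1) into 27 clusters. A cluster was named where at least 3 markers of a fixed list were 2-fold above the other cells in at least 25% of its cells, or, for chondrocytes, where at least 8 markers were in 50% of its cells, and where its 10 leading genes did not go against the name. Names rest on this rebuilt clustering.

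Counts were summed per class and age and scaled per 1000000 gene UMIs. Contrasts used genes whose summed UMIs over the compared groups reached 100 (50 for the label), and a gene was called past 2-fold. No test was possible with 1 library per age, and intervals (95%, exact) cover counting error only. A count of 0 was given the limit of 3 counts. A cell was taken to hold markers of another class at 10 UMIs summed over them. The scripts were tested on simulated data with known changes. All 10 members are named, with the 4 most abundant genes of each list and the 3 genes most like each member. The members and lists were chosen with earlier results of these data known. Analyses used Python 3.11.15, NumPy 2.4.6, SciPy 1.17.1, pandas 2.3.3 and matplotlib 3.10.9.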

Additional observations from a re-analysis of the deposited data

Results flagged for a closer look

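Dcn and Omd had age ratios past 2-fold in opposite directions in different cells, and none of these differences was tested, since each age is 1 library. For Dcn the log2 ratio of 8 weeks over P10 was -1.03 in NP-like cells and -3.23 in chondrocyte-like cells, and 1.90 in the clusters with tendon markers. For Omd it was -1.14 in NP-like cells and -2.36 in chondrocyte-like cells, and 1.51 in the clusters with tendon markers. The NP-like values rest on 155 and 28 UMIs at P10, with thinned shares at or near those of blood cells, and are not read as a change in those cells. Without cells that held markers of another class the members called lower in NP-like cells were 2 in place of 4, and after thinning 0, where members under 100 UMIs were not counted. The chondrocyte-like and tendon-marker values compare different clusters at each age.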

How the results depend on the processing

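No paired analysis was possible because the cells of the 4 samples per age cannot be traced to a sample, and for the same reason no sample could be left out in turn. The comparison of the clusters with tendon markers was chosen after the data had been seen, and its 4 higher and 2 lower members were the same in number under each alternative run for it, one of which compared the tendon fibroblast-like cells that separate clustering of the libraries names at both ages. Of 662 alternative values of the 71 gene values past 2-fold, 636 kept their direction and stayed past 2-fold, 23 kept their direction under 2-fold and 3 changed direction. The 3 were Fmod (-0.56) and Chad (-0.076) between the ages in endothelial-like cells with the automatic doublet threshold, and Epyc in NP-like over tendon fibroblast-like cells (-0.23) without cells holding markers of another class. Counts of members past 2-fold that moved are given with the main count first. Between the ages in NP-like cells, lower went from 4 to 2 without cells holding markers of another class and to 0 with cells thinned to 2000 UMIs, which also gave 1 higher for 0. In chondrocyte-like cells, higher went from 1 to 0 with separate clustering of the libraries and with scaling to the median gene. In hypertrophic chondrocyte-like cells, higher went from 0 to 1 at resolution 2 and with separate clustering, and lower from 1 to 2 with the stricter filter, with thinning and with scaling to the median gene. In endothelial-like cells, higher went from 2 to 0 with the automatic doublet threshold, without cells holding markers of another class and with thinning, and lower from 0 to 2 with that threshold and to 3 with no minimum of UMIs. For NP-like over tendon fibroblast-like cells, higher went from 1 to 0 at resolution 0.5, with the automatic doublet threshold, without cells holding markers of another class, with thinning and with scaling to the median gene, and lower from 8 to 5 with thinning. For NP-like over chondrocyte-like cells at 8 weeks, higher went from 1 to 0 at resolutions 0.5 and 2, with separate clustering of the libraries and with scaling to the median gene. For NP-like over hypertrophic chondrocyte-like cells at 8 weeks, higher went from 0 to 1 at resolution 2. For the label at P10, lower went from 1 to 0 without cells holding markers of another class and to 2 with 10 WPRE4 UMIs per 10000, with 1 TDT UMI and with no minimum of UMIs, which also gave 1 higher for 0. At 8 weeks, higher went from 1 to 0 without cells holding markers of another class. With separate clustering, 5 of 10 members kept their highest class at 8 weeks. Of the 30 genes named for a like profile, 12 were named with Spearman's rho and 15 at resolution 2. The cause of these shifts was not tested. At resolution 0.5 the hypertrophic chondrocyte-like comparisons that need P10 gave no value, since 1 cell of that class was left there, and the label comparison was not run under other clusterings. Thinning leaves few UMIs, so fewer members reach the minimum of 100. Members with under 100 UMIs in NP-like cells are limited by depth.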
